A study of Mus musculus with 17 samples.

Results

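Bone morphogenetic proteins (BMPs) are secreted signals of the TGF-beta superfamily. Described here are 8 genes of this pathway in mouse lacrimal gland, the gland that makes the watery part of tears, and in organoids grown from it: the ligand genes Bmp4 and Bmp7, the receptor gene Bmpr1a, the target genes Id1, Id2 and Id3, and the feedback inhibitor genes Smad6 and Bambi. The rows were found by matching Ensembl IDs to mouse symbols. All 8 were present in both deposited count tables, out of 57638 gene IDs in either table. Of the 8, 7 passed the filter on low counts in each table and were tested, and Bmp4 did not pass it.

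The series compared 7 groups in 17 libraries of bulk polyA RNA. One table held wild-type lacrimal gland tissue (3 libraries, numbered 6, 7 and 8) and wild-type organoid lines of the same 3 numbers that had not been cloned, in expansion medium (EM, 3 libraries) and in differentiation medium (DM, 3 libraries). The other table held organoid lines grown from single clones, 2 of them wild type (WT) and 2 of them carrying the label Pax6 KO, each cultured in EM and in DM with 1 library per clone and medium. By the growth protocol in the labels, EM cultures had 7 days of EM and DM cultures had 2 days of EM followed by 5 days of DM. The series' design text gives the clones 7 days in DM, so their time in DM is uncertain. The sources used here do not give the composition of the media, the age of the mice, the way in which Pax6 was altered or whether the lines came from separate animals. With 2 clones per genotype, a difference between genotypes and a difference between the clones that were picked cannot be told apart beyond the spread between the 2. The p-values measure the spread between these libraries, which may in part be technical.

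A BMP ligand brings together type I receptors such as BMPR1A and type II receptors such as BMPR2 on the cell surface, and the receptors phosphorylate SMAD1, SMAD5 and SMAD9. With SMAD4 these enter the nucleus and bind the control regions of target genes, among them the Id genes, whose products bind E proteins and keep them from DNA. SMAD6 and BAMBI are inhibitors that BMP signalling itself can induce: SMAD6 acts on receptors and SMADs inside the cell, and BAMBI is a receptor-like protein that lacks a kinase domain. In the lacrimal gland, BMP7 is known for its role in mesenchyme and branching during development.

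In GENCODE M21 (GRCm38) the ligand genes lie at chr14:46383520-46390669 (Bmp4, minus strand) and chr2:172868012-172940321 (Bmp7, minus strand), and the receptor gene Bmpr1a at chr14:34410734-34503341 (minus strand). The target genes are at chr2:152736251-152737410 (Id1, plus strand), chr12:25093799-25097140 (Id2, minus strand) and chr4:136143497-136145755 (Id3, plus strand). The inhibitor gene Smad6 is at chr9:63953076-64022059 (minus strand). The deposited counts are per gene, so the values below do not separate transcripts.

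The stretches that follow show the letters SMADs and E proteins are known to bind, where they occur near the start of 3 target and inhibitor genes. The RefSeq table of promoters (GRCm38.p6) held 5 of the 8 genes, namely Id2, Id3, Smad6, Bmp4 and Bmpr1a, and not Id1, Bambi or Bmp7. Searched on both strands from 250 bases before to 50 bases after the start were GGCGCC, the GC-rich letters bound by SMAD1 and SMAD5, CAGAC, the SMAD element, and CANNTG, the E-box. Among 32851 windows of this length, 11.9% held GGCGCC, 49.6% held CAGAC and 72.3% held CANNTG. Each line gives the gene and a stretch 5′ to 3′ on the gene's strand, with matches in capitals, and position 1 is the first transcribed base.
Id2 (chr12:25096254-25096342, minus strand, 250 to 162 bases before the start, in an intron of a longer Id2 transcript): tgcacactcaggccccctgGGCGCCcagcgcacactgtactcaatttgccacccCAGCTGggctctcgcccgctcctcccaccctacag
Id3 (chr4:136143643-136143671, plus strand, 179 to 151 bases before the start): tgtcctcggcgtCAGACcagcctaaggaa
Id3 (chr4:136143742-136143770, plus strand, 80 to 52 bases before the start): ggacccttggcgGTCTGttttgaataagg
Smad6 (chr9:64022056-64022155, minus strand, 96 bases before the start to base 4): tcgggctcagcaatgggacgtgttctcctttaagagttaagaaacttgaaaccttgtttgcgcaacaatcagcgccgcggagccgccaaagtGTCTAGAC
Id2 held 1 GGCGCC and 1 E-box upstream of its start. Id3 held CAGAC in each orientation, on stretches that lie in the 5′ untranslated exon of a longer GENCODE transcript. The Smad6 stretch ends in GTCTAGAC, a palindrome of GTCT and AGAC that spans the start and was searched for after the sequence had been seen, and 70 of the windows (0.213%) held it. Smad6 held neither GGCGCC nor CAGAC in its window, and 1 E-box, CATATG from base 8. Bmpr1a held GGCGCC 198 bases before its start, and Bmp4 held 3 E-boxes and neither SMAD motif in this window. A match is a description of letters and does not show binding.

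Total counts ran from 12801473 to 19207469 per library in the first table and from 18282059 to 22500534 in the clones, and levels are given as CPM, counts scaled to a common library size with TMM factors, each table scaled apart. Pax6 transcript, the target of the labelled knockout, was at 245 and 276 CPM in WT clones 1 and 2 in EM, 219 and 280 in DM, 172 and 272 in KO clones 1 and 2 in EM, and 135 and 309 in DM. It was not called different between genotypes (adjusted p = 0.744 in EM and 0.831 in DM), so the transcript level does not check the KO labels. Acinar markers (4 genes) summed to between 10281 and 11387 CPM in gland and to at most 31.6 CPM in any organoid library, while basal epithelial markers (4 genes) summed to at least 2626 CPM in every organoid library and to at most 76.4 CPM in gland. The DM library of line 8 stood apart from those of lines 6 and 7: its 4 markers of dividing cells summed to 831 CPM against 327 and 439, and its 5 myoepithelial markers to 225 CPM against 134 and 147.

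Per kilobase of exon, so that genes can be compared, Bmpr1a and Id2 were the most abundant of the 8 in gland, at 21.8 ± 2.30 and 16.3 ± 1.87 RPKM (CPM divided by exon length in kilobases, mean ± SD, n = 3). The next 4 in gland lay close together: Id3 was at 2.06 ± 0.187 RPKM, Id1 at 1.41 ± 0.701, Bmp7 at 1.21 ± 0.142 and Smad6 at 1.04 ± 0.400. The libraries of Id1 overlapped those of Id3, Bmp7 and Smad6, and those of Bmp7 and Smad6 overlapped each other. Bmp4 at 0.403 ± 0.164 RPKM and Bambi at 0.231 ± 0.0907 were lowest, also with overlapping libraries. In uncloned EM organoids Bmpr1a led at 14.9 ± 0.524 RPKM, followed by Id2 at 8.22 ± 0.694 and Bmp7 at 6.16 ± 0.160. In uncloned DM organoids Id1 stood beside Id2, at 14.6 ± 5.21 and 14.4 ± 0.398 RPKM, with overlapping libraries, and Bmpr1a was at 18.01 ± 1.26. The same 3 genes were the most abundant per length in WT clones in DM, where Id2 was at 28.2 ± 7.06, Bmpr1a at 27.9 ± 0.731 and Id1 at 24.0 ± 14.1 RPKM (n = 2), within each other's spread.

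**Figure D1:**
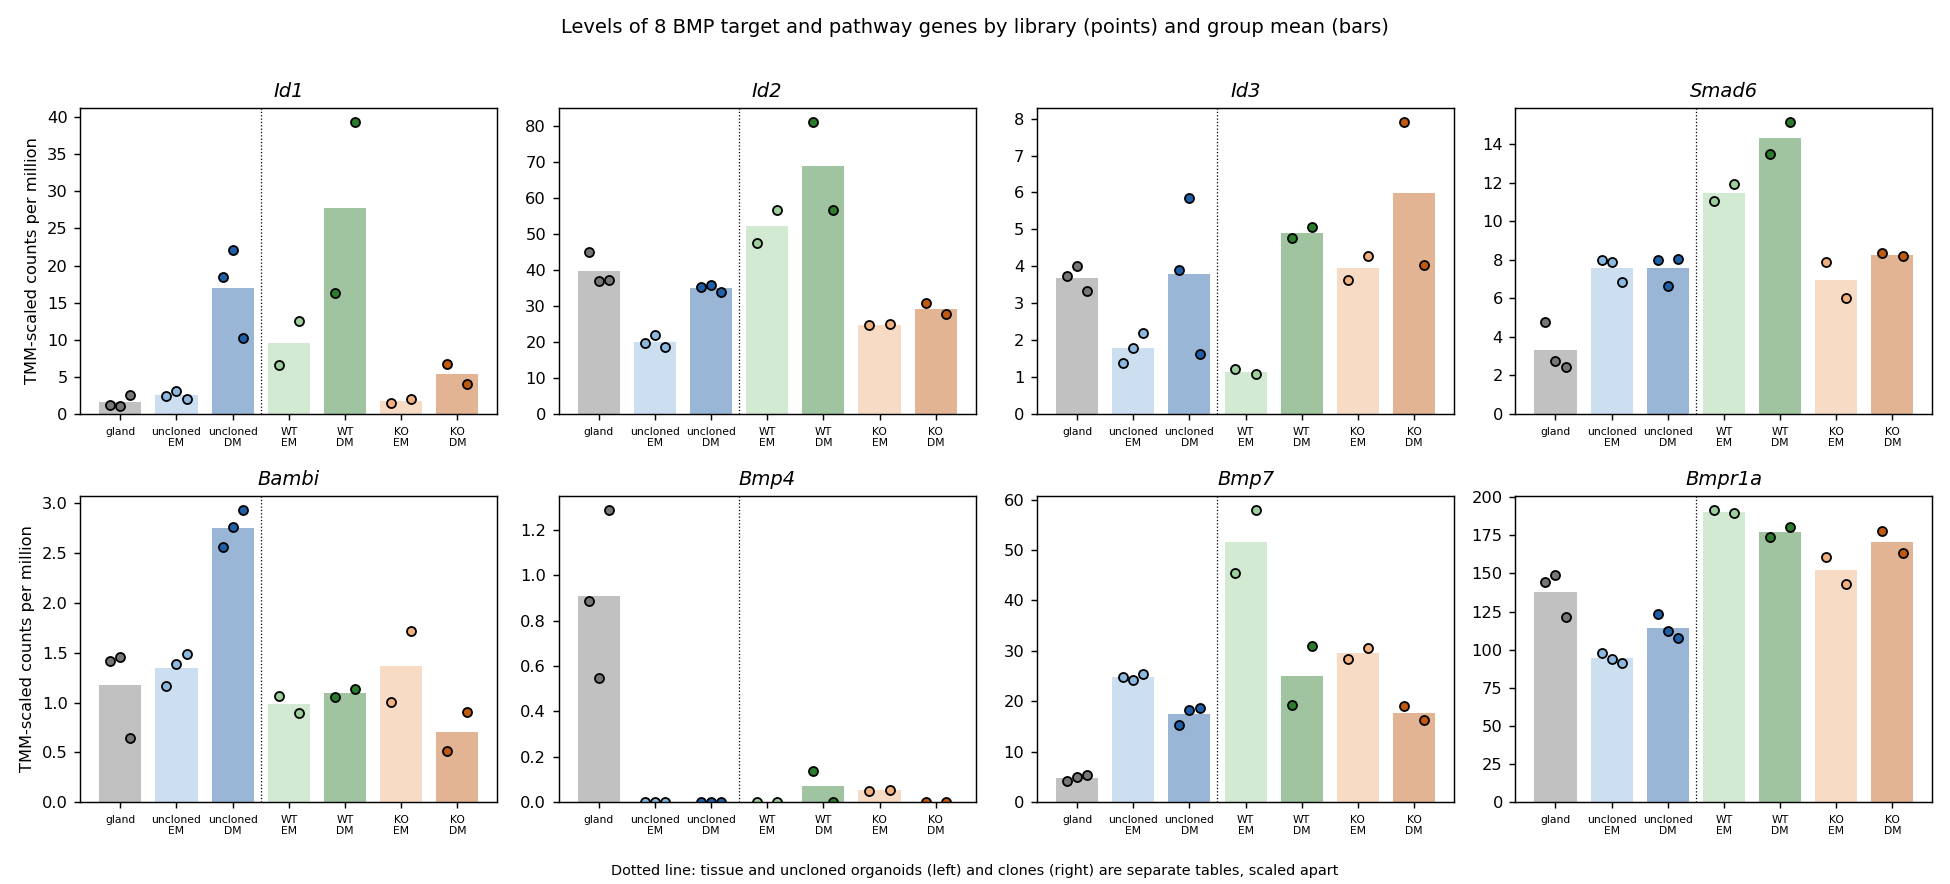
Level of each of the 8 genes in TMM-scaled CPM (vertical axes from 0) in every library (points) and the mean of each group (bars), for gland, uncloned organoids and clones in expansion (EM) and differentiation medium (DM). Id1 is highest in DM groups of uncloned lines and WT clones, and Bmp4 is near 0 in every organoid group.

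The change of medium in the uncloned lines asks how these genes differ between cultures kept in expansion medium and cultures moved to differentiation medium. In DM, Id1 was 6.72-fold higher, Bambi 2.04-fold, Id2 1.75-fold and Bmpr1a 1.21-fold, and Bmp7 fell to 0.703 of its EM level. Thus 4 of the 7 members tested were called higher and 1 lower, and Id3 and Smad6 did not pass the test (adjusted p under 0.05 by edgeR's quasi-likelihood test over all genes). Of all 13713 genes tested in this comparison, 17.2% were called higher (2352) and 13.2% lower (1806), and scaling by total count in place of TMM gave 1952 higher and 2597 lower. The median log2 fold change was 0.80 over the 7 members and 0 over all genes. In bulk RNA, fewer cells of a type and less RNA per cell cannot be told apart, here and in every comparison that follows.

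Bmp7, the 1 ligand gene of the 8 with more than a few counts in organoids, was at 24.8, 24.1 and 25.4 CPM in EM and at 15.3, 18.3 and 18.6 CPM in DM of lines 6, 7 and 8. All 3 DM libraries lay below all 3 EM libraries. The log2 fold change was -0.51 ± 0.11 (SE, adjusted p = 0.00574). Bmp4 had 0 counts in all 6 of these libraries, which over each group allows up to 0.0397 CPM in EM and 0.0424 CPM in DM (3 counts, counting error only).

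The receptor gene Bmpr1a was at 98.0, 94.1 and 91.4 CPM in EM and at 123, 112 and 108 CPM in DM, without overlap. The difference was small, at 0.28 ± 0.09 (log2, adjusted p = 0.042). It was no longer called when the EM library of line 6, 7 or 8 or the DM library of line 6 or 7 was left out (adjusted p up to 0.136), under scaling by total count (0.108) or with no filter on low counts (0.0641).

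Id1 had the largest fold change of the members in this comparison. It was at 2.41, 3.14 and 1.95 CPM in EM and at 18.4, 22.1 and 10.3 CPM in DM, and every DM library lay above every EM library. Line 8 was the lowest of the 3 in both media. The log2 fold change was 2.75 ± 0.31 (adjusted p = 0.000109), and without the DM library of line 8 it was 3.01 (adjusted p = 8.41e-07).

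Id2 was at 19.8, 21.8 and 18.5 CPM in EM and at 35.3, 35.8 and 33.9 CPM in DM. The DM libraries lay within 2 CPM of each other and clear of EM, and Id2 rose by 0.80 ± 0.10 (log2, adjusted p = 0.000195). Id3 was at 1.37, 1.79 and 2.19 CPM in EM and at 3.90, 5.84 and 1.62 CPM in DM. Here lines 6 and 7 were higher in DM and line 8 lower, so the groups overlapped. The Id3 log2 fold change was 1.08 ± 0.39 and was not called (adjusted p = 0.0558), whereas without the DM library of line 8 it was 1.45 (adjusted p = 0.000988). DESeq2 (adjusted p = 0.0391) and the fit with no filter on low counts (0.0261) also called Id3.

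The intracellular inhibitor gene Smad6 was at 8.01, 7.90 and 6.87 CPM in EM and at 8.00, 6.61 and 8.04 CPM in DM, with full overlap. Its log2 fold change was -0.01 ± 0.20 (adjusted p = 0.989). Bambi, the pseudoreceptor gene, was at 1.16, 1.39 and 1.49 CPM in EM and at 2.56, 2.77 and 2.93 CPM in DM, without overlap, from 28 to 74 counts per library. It rose by 1.03 ± 0.26 (log2, adjusted p = 0.0122), and the call was lost without the EM library of line 6 (adjusted p = 0.0549).

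Markers of other cell states differed between the same 6 libraries. The 5 myoepithelial markers summed to between 5.88 and 6.97 CPM in EM and between 134 and 225 in DM (4 of 5 called higher, none at 0). The 4 basal markers went from between 2626 and 2906 CPM to between 4154 and 5369 (2 of 4 called higher), and the 4 acinar markers from between 3.29 and 4.10 to between 21.8 and 26.3 CPM (2 of 4). Of the pericyte markers, 2 of 3 were called higher, their sum going from between 0.208 and 0.497 to between 21.3 and 40.9 CPM, with Pdgfrb at 0 in both media. The 6 immune markers summed to between 0.658 and 1.74 CPM in EM and between 3.96 and 7.29 in DM (2 of 4 tested called higher, with Ptprc and Cd3e at 0 in both media). Of the fibroblast markers 1 of 6 was called higher, and of the endothelial markers 1 higher and 1 lower of 6, with sums of at most 1.62 CPM. The 4 markers of dividing cells summed to between 797 and 921 CPM in EM and between 327 and 831 in DM, and none of the 4 was called. The part of these changes in the values of the 7 genes was not tested.

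The same change of medium was made in the clones. In WT clones Id3 was 4.28-fold higher in DM and Bmp7 fell to 0.485 of its EM level, and the other 5 genes tested were not called. Of 14282 genes tested, 9.61% were called higher and 6.13% lower in WT clones. In KO clones none of the 7 was called, where 4.94% of genes were called higher and 3.41% lower. DESeq2 called 1 of the 7 in KO clones (Id1, adjusted p = 0.0225), and 2 of the 7 were at an unadjusted p under 0.05 (Id1, 0.0203, and Bmp7, 0.0189). These fits do not use the fact that EM and DM libraries share a clone. With the clone as a block, Id1 was called higher and Bmp7 lower in KO clones. In WT clones Id1 was then called higher as well. The median log2 fold change of the 7 members was 0.32 in WT and 0.24 in KO clones, against a median of all genes that was 0.00 in both when rounded.

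**Figure D2:**
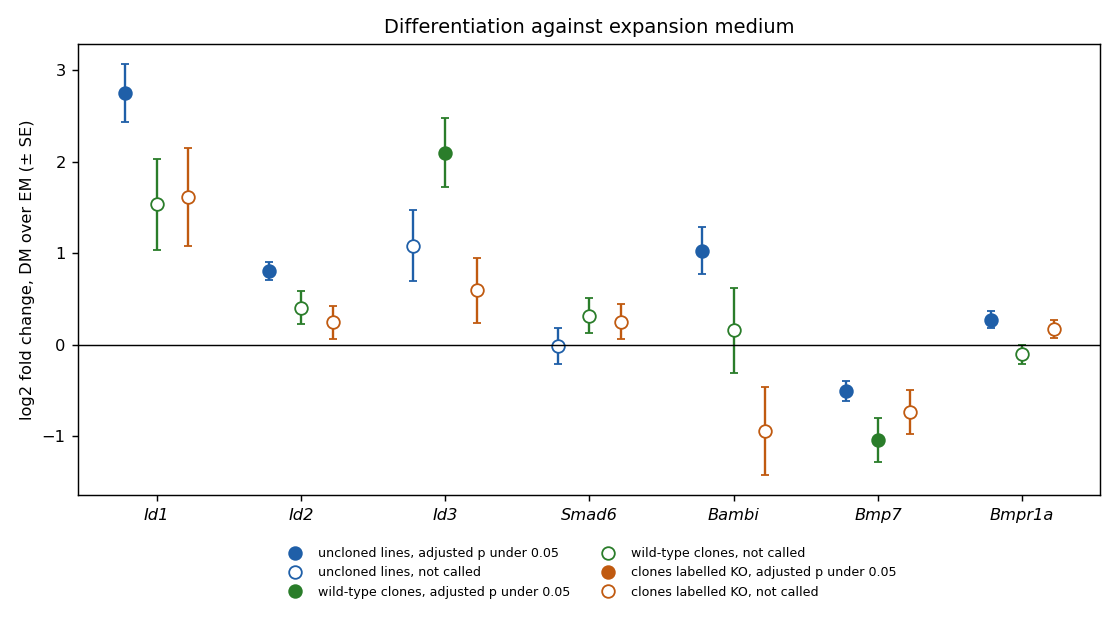
Log2 fold change of DM over EM (vertical axis, ± SE) for the 7 genes tested, in uncloned lines (3 libraries per medium), WT clones and KO clones (2 per medium); filled points passed an adjusted p under 0.05. Id1 lies above 0 and Bmp7 below 0 in all 3 backgrounds, and Bambi lies above 0 in uncloned lines and below it in KO clones. The fit shown does not use the line or clone as a block.

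Bmp7 in WT clones 1 and 2 was at 45.4 and 57.9 CPM in EM and at 19.2 and 31.0 CPM in DM, without overlap (log2 fold change -1.04 ± 0.24, adjusted p = 0.0294). In KO clones it was at 28.4 and 30.6 CPM in EM and at 19.1 and 16.4 CPM in DM, also without overlap (-0.73 ± 0.24, adjusted p = 0.115). The WT call was lost without either EM library or without the DM library of clone 1 (adjusted p up to 0.126) and in a fit of these 4 libraries alone (0.0989). With the clone as a block, the KO change was called (-0.73, adjusted p = 0.0176), as it was in a fit of its 4 libraries alone (0.0291). Bmp4 had 3 counts in DM of WT clone 1, 1 count in each KO clone in EM and 0 counts in the other 5 clone libraries.

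Bmpr1a was not called in either genotype. It was at 191 and 190 CPM in EM and 174 and 180 in DM of WT clones, and at 161 and 143 in EM and 178 and 164 in DM of KO clones. The log2 fold changes were -0.11 ± 0.10 (adjusted p = 0.521) and 0.17 ± 0.10 (0.359).

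Id1 was at 6.60 and 12.6 CPM in EM and at 16.3 and 39.3 CPM in DM of WT clones 1 and 2. In KO clones it was at 1.52 and 1.98 CPM in EM and at 6.67 and 4.04 CPM in DM. In both genotypes the DM libraries lay above the EM libraries, and clone 2 exceeded clone 1 in WT in either medium. The fold changes were 1.54 ± 0.50 (log2, adjusted p = 0.0805) and 1.61 ± 0.54 (0.12), neither called. With the clone as a block they were 1.48 (adjusted p = 0.00613) and 1.59 (0.0149), both called. The WT change was also called by DESeq2 (0.0153) and with no filter on low counts (6.95e-07). The fit with no filter called more of all genes in this comparison too, so its smaller p is not further evidence for Id1. With 1 library left out, the WT log2 fold change ranged from 0.77 to 2.07.

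Id2 in WT clones was at 47.4 and 56.6 CPM in EM and at 80.9 and 56.6 in DM, so that clone 1 was higher in DM and clone 2 level. In KO clones it was at 24.6 and 24.8 CPM in EM and at 30.7 and 27.7 in DM. The log2 fold changes of 0.40 ± 0.18 and 0.24 ± 0.18 were not called (adjusted p = 0.18 and 0.487), the WT value becoming 0.0378 without the DM library of clone 2.

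Id3 was at 1.20 and 1.08 CPM in EM and at 4.76 and 5.07 CPM in DM of WT clones, from 23 to 104 counts. The DM libraries were close together and above EM, with a log2 fold change of 2.10 ± 0.38 (adjusted p = 0.0138). Leaving out the EM library of WT clone 1 or of clone 2 ended the call (adjusted p up to 0.0735). In KO clones Id3 was at 3.64 and 4.28 CPM in EM and at 7.90 and 4.04 in DM. Clone 1 was higher in DM and clone 2 was not, giving 0.59 ± 0.36 (adjusted p = 0.371).

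Smad6 was at 11.1 and 11.9 CPM in EM and 13.5 and 15.1 in DM of WT clones, and at 7.88 and 6.00 in EM and 8.37 and 8.18 in DM of KO clones. The DM libraries were above EM in both, by 0.32 ± 0.19 and 0.25 ± 0.19 (log2), and neither was called (adjusted p = 0.311 and 0.493). Bambi had only 10 to 33 counts per clone library. It was at 1.07 and 0.891 CPM in EM and 1.05 and 1.14 in DM of WT clones (log2 0.16 ± 0.47), and at 1.01 and 1.72 in EM and 0.513 and 0.903 in DM of KO clones (-0.94 ± 0.48, adjusted p = 0.285).

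Whether the medium acted differently by genotype label was tested as an interaction. It called 0% of the 14282 genes and none of the 7, with 1126 genes at an unadjusted p under 0.05 and 40 genes higher and 158 lower by DESeq2, none of them a member (Bambi had no adjusted p in that test). Among the members Id3 had the smallest unadjusted p (0.0222), with an interaction of -1.51 ± 0.51 on the log2 scale (adjusted p = 0.532). For Id1 the interaction was 0.08 ± 0.70, a wide error that leaves room for a difference in either direction. In the clones, the 4 dividing markers summed to between 199 and 271 CPM in EM and 36.9 and 119 in DM of WT (2 of 4 called lower), and to between 307 and 408 and 61.7 and 75.3 in KO (3 of 4 called lower). The 5 myoepithelial markers went from between 1.20 and 3.61 CPM in EM to between 11.3 and 29.8 in DM of WT (1 of 4 tested called higher), and from between 0.960 and 1.51 to between 31.5 and 36.1 in KO (2 of 4). The 3 pericyte markers went from between 0.535 and 0.797 to between 10.8 and 26.6 CPM in WT (1 of 2 called higher, Pdgfrb at 0) and from between 0.626 and 2.63 to between 9.99 and 84.3 in KO (none of 2). Of 3 acinar genes tested, 1 was called higher in WT and 1 lower in KO, and of 4 basal genes 1 was called higher in WT. The part of these in the values above was not tested.

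Clones labelled KO were then set against WT clones within each medium. In EM, Id1 was at 0.183 and Id2 at 0.475 of the WT level, and Id3 was 3.45-fold higher. In DM, Id1 was at 0.193 and Id2 at 0.425 of WT, and Id3 was not called. So in EM 1 of the 7 was called higher and 2 lower, where 5.38% of genes were called higher and 4.41% lower. In DM none was called higher and 2 lower, against 2.39% and 3.08% of genes, and 1667 genes were higher at an unadjusted p under 0.05, none of them a member by this test or by DESeq2. The median log2 fold change of the members was -0.73 in EM and -0.63 in DM, and that of all genes 0.01 and -0.01. These comparisons share libraries with those of the medium, so the values are given side by side and not as independent evidence.

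**Figure D3:**
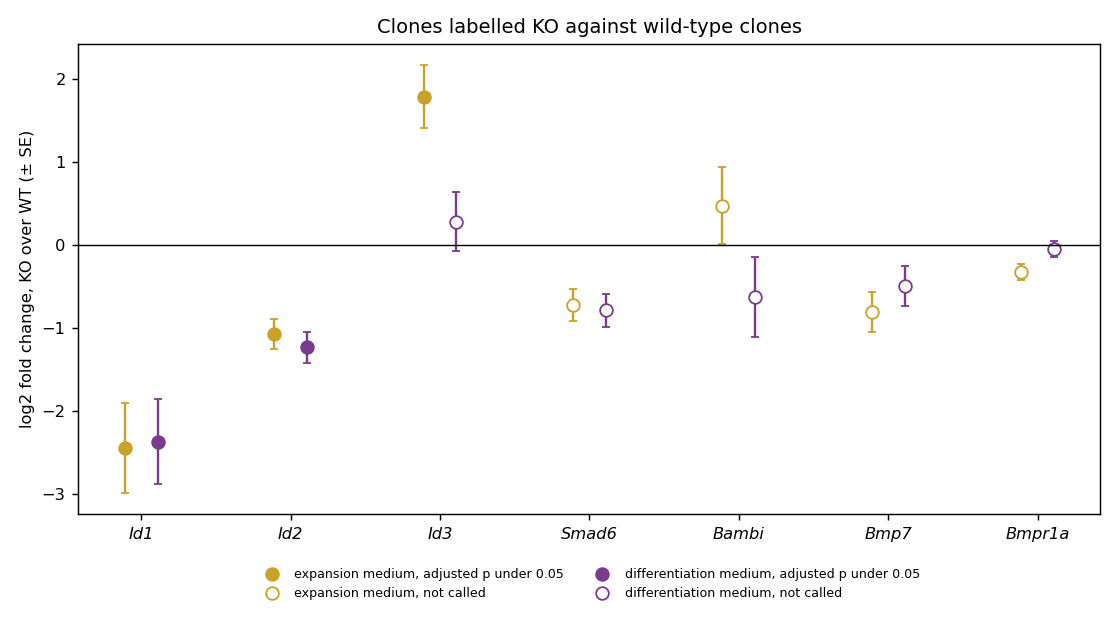
Log2 fold change of clones labelled KO over WT clones (vertical axis, ± SE) for the 7 genes tested, in expansion and in differentiation medium, with 2 clones per genotype; filled points passed an adjusted p under 0.05. Id1 and Id2 lie below 0 in both media, and Id3 lies above 0 by 1.79 in EM and by 0.28 in DM.

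Both KO clones lay below both WT clones for Id1, in EM (1.52 and 1.98 against 6.60 and 12.6 CPM) and in DM (6.67 and 4.04 against 16.3 and 39.3). The log2 fold changes were -2.45 ± 0.54 (adjusted p = 0.0356) and -2.37 ± 0.51 (0.0477). In EM the call was lost when any 1 of the 4 libraries was left out (adjusted p 0.0544 to 0.18). In DM it was lost without WT clone 2, KO clone 1 or KO clone 2 (up to 0.195) and in a fit of these 4 libraries alone (0.095).

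Id2 showed the same order, with both KO clones below both WT clones in each medium. Its KO levels spanned 24.6 to 30.7 CPM over both media and its WT levels 47.4 to 80.9 CPM. The log2 fold changes were -1.07 ± 0.18 (adjusted p = 0.0176) in EM and -1.23 ± 0.18 (0.0223) in DM. The EM call was lost without WT clone 2 or either KO clone (adjusted p up to 0.108), and the DM call without either KO clone (up to 0.124) or in a fit of these 4 libraries alone (0.0627).

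Id3 went the other way in EM, with 3.64 and 4.28 CPM in KO clones against 1.20 and 1.08 CPM in WT clones. It rose by 1.79 ± 0.38 (log2, adjusted p = 0.0319), a call lost when any 1 of the 4 libraries was left out (0.105 to 0.152). In DM the KO libraries, at 7.90 and 4.04 CPM, lay on either side of the WT libraries at 4.76 and 5.07 (0.28 ± 0.35, adjusted p = 0.675).

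Smad6 was lower in both KO clones than in both WT clones in each medium, with log2 fold changes of -0.73 ± 0.19 in EM and -0.79 ± 0.19 in DM. Neither passed the test (adjusted p = 0.0615 and 0.0635), and DESeq2 called both (0.0337 and 0.0239). For Bmp7 the fold changes were -0.81 ± 0.24 in EM, where the KO libraries lay below the WT libraries (adjusted p = 0.079), and -0.50 ± 0.24 in DM, where KO clone 1 at 19.1 CPM and WT clone 1 at 19.2 CPM were level (0.26). DESeq2 (0.0224), a fit of the 4 libraries alone (0.0357) and the fit with no filter on low counts (0.000261) called Bmp7 in EM. DESeq2 and the fit with no filter also called more of all genes there. Bmpr1a was at -0.33 ± 0.10 in EM (log2, adjusted p = 0.0882; 0.0345 by DESeq2) and at -0.05 ± 0.10 in DM. Bambi was at 0.47 ± 0.46 in EM and -0.63 ± 0.48 in DM (log2), with overlapping libraries in EM and adjusted p = 0.561 and 0.475. Dividing-cell markers summed higher in KO than in WT clones in EM (307 to 408 against 199 to 271 CPM) with none of 4 called. Of the epithelial markers, 1 of 4 basal genes was called higher in EM and 1 of 3 acinar genes lower in DM. The part of these in the values was not tested.

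Against gland tissue, the organoids of uncloned lines had more Bmp7, Smad6 and, in DM, Id1 and Bambi, and less Bmpr1a and, in EM, Id2 and Id3, all relative to the median gene. In EM 2 of the 7 members were called higher and 3 lower, where 37.4% of the 13713 genes were called higher and 37.4% lower. In DM 4 were called higher and 1 lower, where 38.1% of genes were called higher and 37.4% lower. The members' median log2 fold change was 0.25 in EM and 1.20 in DM, and that of all genes 0.01 and 0.02. Both comparisons use the same 3 gland libraries. The direction here depends on the scaling: TMM factors were 0.388 to 0.405 in gland and 1.52 to 1.65 in the organoids, and scaling by total count in place of TMM moved the median of all genes to 2.06 in EM and to 1.99 in DM, with all 7 members called higher.

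**Figure D4:**
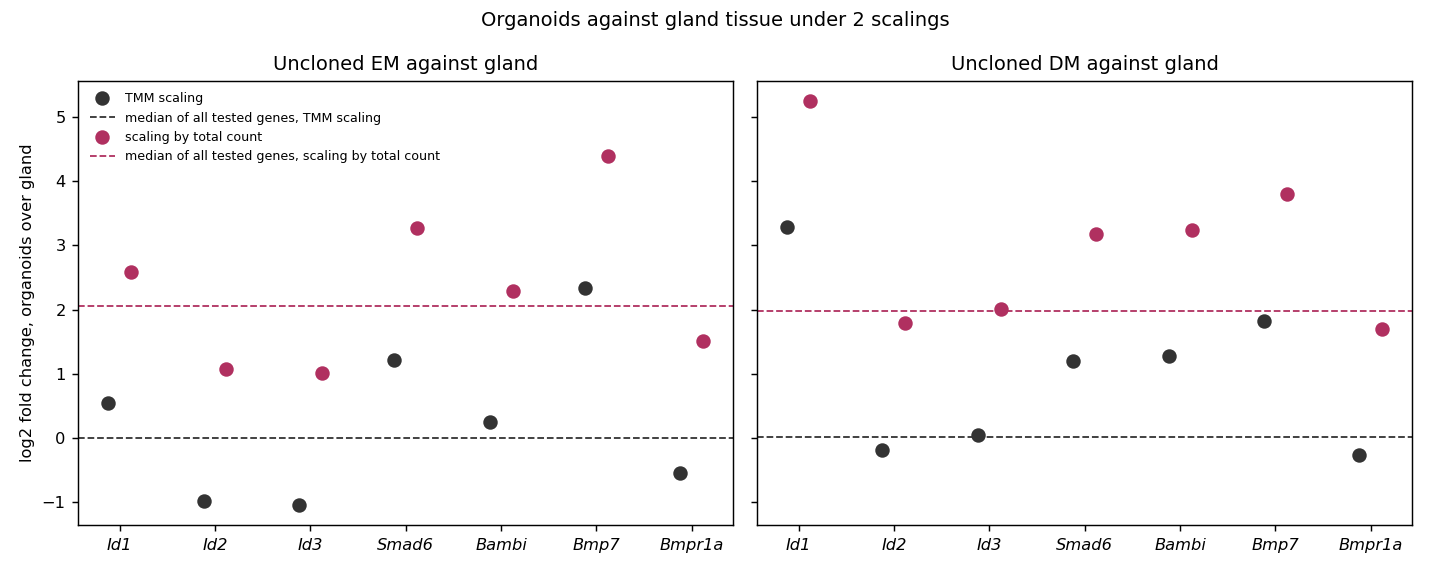
Log2 fold change of uncloned organoids over gland (vertical axis) for the 7 genes tested, in EM (left) and DM (right), under TMM scaling (dark) and scaling by total count (red), with the median of all 13713 tested genes as a dashed line for each. Each gene keeps nearly the same distance from its dashed line, while all 7 lie above 0 under total-count scaling.

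Bmp7 was at 4.26, 4.92 and 5.4 CPM in gland, below all 6 uncloned organoid libraries. It rose by 2.34 ± 0.14 (log2) in EM (adjusted p = 5.05e-08) and by 1.83 ± 0.14 in DM (3.83e-07). Bmp4 was the reverse: it had 5, 3 and 10 counts in gland 6, 7 and 8, at 0.888, 0.547 and 1.29 CPM, and 0 in all 6 uncloned organoid libraries. Under TMM scaling, the gland level was 24.0-fold the floor of 3 counts over a group in EM and 22.5-fold that floor in DM. By total count these ratios were 5.77-fold and 5.73-fold. They take the gland level, from 18 counts in all, without its own counting error, so they are not strict lower bounds. Bmp4 entered a test only with no filter on low counts (adjusted p = 0.00013 and 0.000153). Gland had markers of other cell types that were at or near 0 in uncloned organoids: its 6 fibroblast markers summed to between 656 and 788 CPM against at most 0.538 CPM in uncloned organoids, where Col1a2, Col3a1 and Lum were at 0. Its 6 endothelial markers summed to between 56.5 and 70.1 CPM against at most 1.62, with Kdr and Emcn at 0 in those organoids, and its 6 immune markers to between 173 and 208 CPM against at most 7.29, with Ptprc and Cd3e at 0. The 3 pericyte markers were not near 0 throughout: they summed to between 20.6 and 26.6 CPM in gland and at most 0.497 in EM. In DM their sum was between 21.3 and 40.9 CPM, with 1 of 3 called higher than gland and 2 lower. The 3 nerve and glia markers summed to between 2.01 and 5.33 CPM in gland and at most 1.65 in uncloned organoids. The part of these cell types in the level of Bmp4 and of the other members in gland was not tested.

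Bmpr1a was at 144, 149 and 121 CPM in gland, above all EM libraries, and overlapping DM in 1 library. It fell by 0.55 (log2, SE 0.09, adjusted p = 0.000244) in EM and by 0.27 (SE 0.09, 0.0202) in DM. The DM call was lost without gland 6, gland 7 or the DM library of line 7 or 8 (adjusted p up to 0.0889) and with no filter on low counts (0.193).

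Id1 was scarce in gland, at 1.24, 1.09 and 2.57 CPM from 7, 6 and 20 counts. The EM libraries overlapped these (log2 0.54 ± 0.44, adjusted p = 0.275), and the DM libraries lay above them, 9.81-fold higher (3.29 ± 0.39, adjusted p = 1.29e-05). Id2 was at 44.9, 36.8 and 37.3 CPM in gland, above both organoid groups. It was called lower in EM, at -0.98 ± 0.11 (adjusted p = 5.72e-06), and not in DM, at -0.18 ± 0.10 (0.135). Id3 was at 3.73, 4.01 and 3.34 CPM in gland, above all EM libraries (-1.04 ± 0.44, adjusted p = 0.0484), a call lost when any 1 of the 6 libraries was left out (0.0511 to 0.131). In DM the Id3 libraries lay on both sides of gland (0.04 ± 0.42, adjusted p = 0.928).

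Smad6 was at 4.79, 2.73 and 2.44 CPM in gland, below every uncloned organoid library. It rose by 1.21 ± 0.24 (log2, adjusted p = 0.000737) in EM and by 1.20 ± 0.24 (0.000785) in DM. Bambi was at 1.42, 1.46 and 0.643 CPM in gland from 5 to 8 counts, overlapping EM (0.25 ± 0.34, adjusted p = 0.52) and below all DM libraries (1.28 ± 0.33, 0.00391).

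A list of 56 other genes of the pathway puts these values in place. Of all genes tested, 17.2% were called higher and 13.2% lower in DM of uncloned lines. In WT clones these shares were 9.61% and 6.13%, and in KO clones 4.94% and 3.41%. They apply to every count of listed genes by medium below. The lists are short, so a count of 1 or 2 called can lie near them. Of 12 other ligand genes, 4 were tested in the uncloned lines and 2 of them were higher in DM than in EM: Bmp5 (1.56 ± 0.32, log2, adjusted p = 0.00427) and Bmp6 (1.24 ± 0.31, 0.0124). Bmp6 went from 1.54, 1.24 and 2.36 CPM in EM to 4.15, 3.88 and 4.08 in DM, a call lost without the EM library of line 6 or 7 (adjusted p up to 0.0623). With the line as a block, and by DESeq2, 3 of the 4 ligand genes were called. In WT clones Bmp6, 1 of the 2 ligand genes tested, was also called (1.86 ± 0.43, adjusted p = 0.0307; lost without EM 1, DM 1 or DM 2, up to 0.13), and no ligand gene was called in KO clones. The median of the tested ligand genes was 1.24 in uncloned lines, 1.17 in WT and 0.22 in KO clones.

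**Figure D5:**
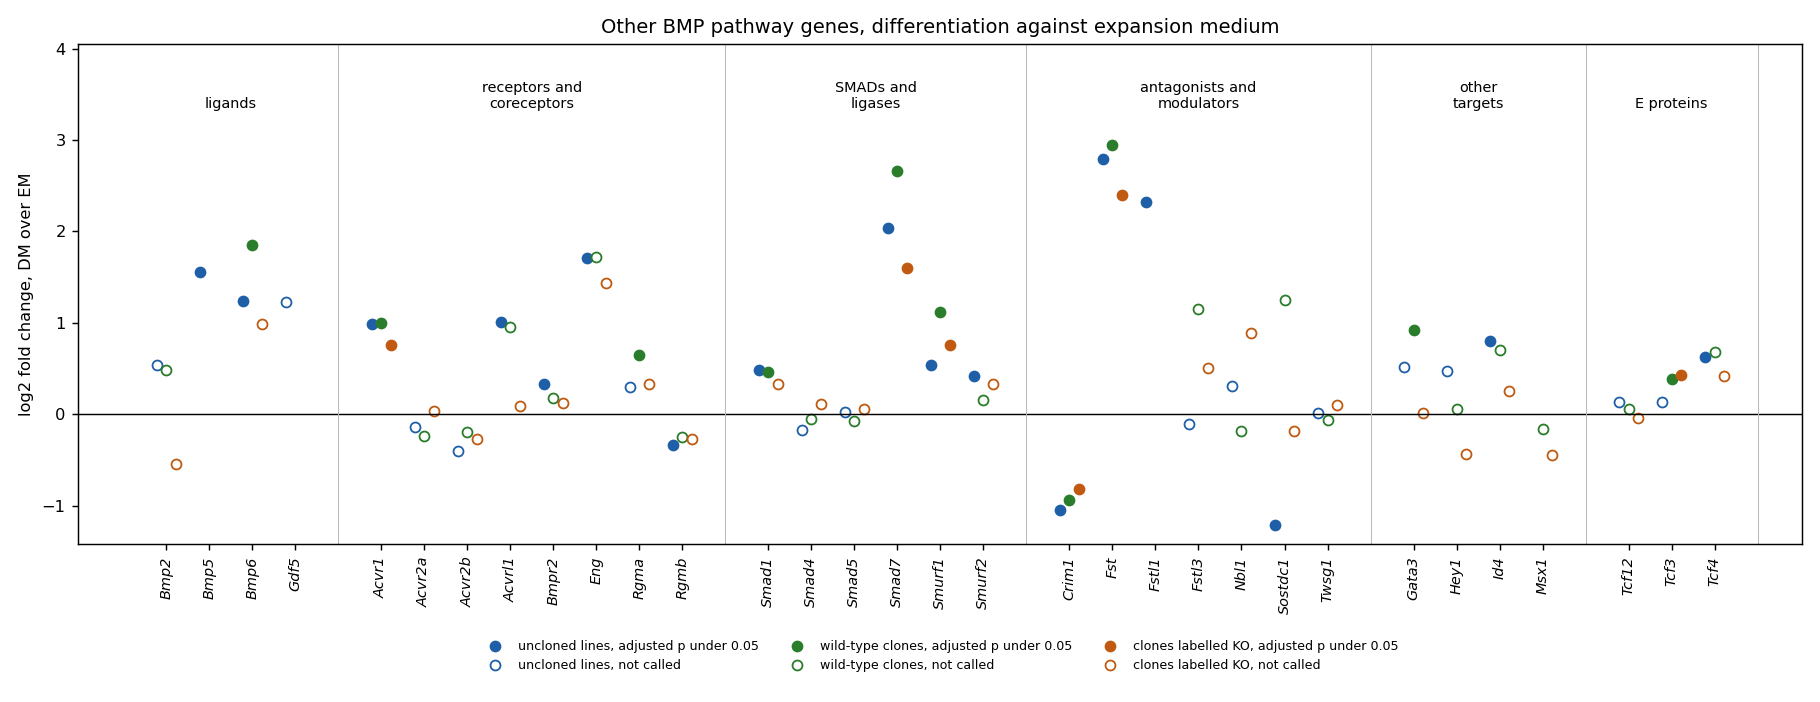
Log2 fold change of DM over EM (vertical axis) for the tested genes of 6 lists of BMP pathway genes, in uncloned lines, WT clones and KO clones; filled points passed an adjusted p under 0.05. Smad7, Smurf1, Acvr1 and Fst lie above 0 and Crim1 below 0, and passed, in all 3 backgrounds.

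Among receptor and coreceptor genes, 4 of 8 tested were higher and 1 lower in DM of uncloned lines. The number higher was 2 without the EM library of line 6 or 7 and 1 without the DM library of line 7, and the number lower was 0 without the EM or the DM library of line 7. Acvr1, another type I receptor gene, went from 18.8, 19.1 and 21.0 CPM to 36.3, 44.1 and 36.6 (0.99 ± 0.11, adjusted p = 7.67e-05), and Rgmb, a coreceptor gene, fell by 0.34 (adjusted p = 0.0117; lost without the EM or the DM library of line 7, up to 0.0515). Acvr1 was also higher in DM of WT clones (1.00 ± 0.14, adjusted p = 0.00587) and KO clones (0.76 ± 0.14, 0.0234; lost without any 1 of the 4 libraries, 0.062 to 0.149), where 2 of 8 and 1 of 8 were called higher. The second in WT clones was the coreceptor gene Rgma (0.64 ± 0.13, adjusted p = 0.0181; lost without EM 1, EM 2 or DM 1, up to 0.111). List medians were 0.32, 0.41 and 0.10 in uncloned lines, WT and KO clones.

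Of the SMAD and SMURF genes, 4 of 6 tested were higher in DM of uncloned lines, 3 of 6 in WT and 2 of 6 in KO clones, none lower, with medians of 0.45, 0.31 and 0.33. In uncloned lines the number was 2 when the EM library of line 6, 7 or 8 was left out, and 2 under total-count scaling. In KO clones it was 1 without DM 1 and 0 without EM 1, EM 2 or DM 2. Smad7, the inhibitory SMAD gene that both BMP and TGF-beta signalling can induce, was at 3.36, 3.18 and 3.64 CPM in EM and at 15.9, 17.3 and 8.68 in DM of lines 6, 7 and 8. As with Id1 and Id3, line 8 was the lowest in DM. The Smad7 log2 fold change was 2.04 ± 0.31 (adjusted p = 0.000613) in uncloned lines, 2.66 ± 0.26 (0.00225) in WT and 1.60 ± 0.25 (0.0159; lost without EM 1, EM 2 or DM 2, up to 0.114) in KO clones. Smurf1, a ubiquitin ligase gene, rose by 0.54, 1.11 and 0.76 (adjusted p = 0.00964, 0.00596 and 0.0326), the KO call being lost without any 1 of the 4 libraries (0.12 to 0.173).

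Extracellular modulators moved in both directions, with 2 of 7 higher and 2 of 7 lower in uncloned lines (median 0.02) and 1 of 6 higher and 1 of 6 lower in WT and in KO clones (medians 0.55 and 0.30). The number higher in uncloned lines was 1 without EM 6, EM 8, DM 7 or DM 8, and with the clone as a block it was 2 in WT clones. Fst, which encodes follistatin, a binder of activins and BMPs, went from 5.02, 5.41 and 5.46 CPM to 37.2, 33.8 and 39.0 in uncloned lines (2.79 ± 0.19, adjusted p = 6.39e-06). It was also higher in WT (2.94 ± 0.50, 0.0115; lost without EM 1 or EM 2, up to 0.0754) and KO clones (2.40 ± 0.48, 0.03; lost without any 1 of the 4, 0.0572 to 0.162). Crim1, a membrane protein gene that can tether BMPs, fell by 1.05, 0.93 and 0.81 (adjusted p = 0.000832, 0.00158 and 0.00459; the last 0.0513 without KO EM 2).

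Of other target genes, 1 of 3 tested was higher in DM of uncloned lines (Id4, 0.80 ± 0.18, adjusted p = 0.00599; list median 0.52) and 1 of 4 in WT clones (Gata3, 0.92 ± 0.12, 0.00537; median 0.38), with none of 4 in KO clones (median -0.21). With the line or clone as a block, 2 targets were called higher in uncloned lines and 2 in WT clones, and the number in uncloned lines was also 2 by DESeq2 and without EM 8. E proteins, the partners of the Id proteins, had 1 of 3 higher in each background. This was Tcf4 in uncloned lines (0.63 ± 0.14, adjusted p = 0.00574) and Tcf3 in WT (0.39 ± 0.08, 0.0261) and KO clones (0.43 ± 0.08, 0.0288), both Tcf3 calls being lost without any 1 of their 4 libraries (up to 0.135 and 0.164). In WT clones 2 of 3 were called with the clone as a block and by DESeq2, and none under total-count scaling. List medians were 0.14, 0.39 and 0.42.

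Between genotypes few of the other pathway genes were called. Rgmb was lower in KO clones in EM, at 46.3 and 43.1 against 79.8 and 106 CPM (-1.05 ± 0.17, adjusted p = 0.0152), and in DM, at 35.2 and 38.7 against 68.9 and 87.0 CPM (-1.08 ± 0.17, 0.0249). Sostdc1, which encodes a secreted BMP and Wnt antagonist, was higher: 26.7 and 72.3 against 3.39 and 3.00 CPM in EM (3.95 ± 0.56, adjusted p = 0.0103) and 28.3 and 58.6 against 7.55 and 7.63 CPM in DM (2.52 ± 0.52, 0.0424). KO and WT libraries did not overlap for either gene. In EM, Acvr1 (0.67 ± 0.14, adjusted p = 0.0297), Smad1 (0.44 ± 0.10, 0.0437) and Gata3 (0.93 ± 0.12, 0.00882) were also higher and Crim1 lower (-0.37 ± 0.08, 0.0369). Each of these calls was lost on leaving out at least 1 library. Those of Acvr1, Smad1, Crim1 and of Sostdc1 in DM were lost without any 1 of the 4 (up to 0.15, 0.211, 0.181 and 0.149). Those of Sostdc1 in EM were lost without WT clone 1 or 2 (0.0638), those of Gata3 without KO clone 1 or 2 (0.0597), and those of Rgmb without WT clone 2 or either KO clone (0.11 in EM and 0.152 in DM). Counts by list in EM were 1 higher and 1 lower of 8 receptors, 1 higher of 6 SMAD genes, 1 higher and 1 lower of 6 modulators, 1 higher of 4 targets and 0 of 2 ligands and 0 of 3 E proteins. In DM they were 1 lower of 8 receptors, 1 higher of 6 modulators and 0 in the other lists. Of all genes tested, 5.38% were called higher and 4.41% lower in EM, and 2.39% and 3.08% in DM. These list counts depend on the method. By DESeq2, 2 modulators and 1 E protein were higher in EM. In DM it called 2 modulators higher, and 1 ligand gene and 1 SMAD or SMURF gene lower. A block on the clone number gave the same counts, except that no SMAD or SMURF gene was lower in DM.

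Against gland, all 4 tested ligand genes were called in both media of the uncloned organoids: Bmp2, Bmp5 and Bmp6 higher and Gdf5 lower. Bmp2 was at 0 to 0.533 CPM in gland (0 to 3 counts) and at 4.26 to 4.64 in EM and 5.23 to 7.00 in DM, and Gdf5 was at 33.2 to 55.3 CPM in gland and at most 3.21 in uncloned organoids. Bmp5 had 2 to 3 counts and Bmp6 0 to 2 counts per gland library. Bmp2, Bmp5 and Bmp6 thus passed the filter on low counts only through the organoid groups. That made a call of higher in organoids nearly certain in advance, so these calls do not describe the ligand genes as a set. Among 8 receptor genes 3 were higher and 2 lower in EM and 3 and 3 in DM, led by Bmpr2, which rose by 1.01 in EM and 1.34 in DM (log2), and Eng, an endothelial coreceptor gene, which was at 7.29 to 10.3 CPM in gland and at most 0.73 in uncloned organoids. SMAD and SMURF genes had 2 of 6 higher in EM and 4 of 6 in DM, led by Smurf1 and Smad1, with none lower (1 lower in EM by DESeq2 and without gland 8). Of all genes tested, 37.4% were called higher and 37.4% lower in EM and 38.1% and 37.4% in DM. Modulators had 6 of 7 higher and 1 lower in both media, the lower being Fstl1, a mesenchymal gene, at 25.3 to 36.6 CPM in gland and at most 0.357 in uncloned organoids. Targets had 2 of 3 and 3 of 3 higher, led by Gata3 and Hey1, and E proteins 2 of 3 higher and 1 lower in both media: Tcf3 rose by 1.22 and 1.36, and Tcf4 fell by 1.86 and 1.23. The medians of the lists against gland, in EM and DM, were 2.79 and 4.19 for ligands, -0.06 and 0.18 for receptors, 0.23 and 0.97 for SMAD genes, 0.91 and 1.40 for modulators, 3.72 and 4.24 for targets and 0.58 and 0.72 for E proteins. The medians of ligands, modulators and targets carry the limit of the filter given above. Among modulators and targets it also touches Sostdc1 (1 to 4 counts in gland) and Gata3 (2 to 7). These counts depend on the scaling. By total count, in both media, SMAD and SMURF genes were 6 of 6 higher and receptors 6 higher and 1 lower, and no E protein was lower (2 of 3 higher in EM and 3 of 3 in DM). All 3 targets were then higher in EM, where Tcf4 turned to 0.21. The counts of ligands and of modulators were as with TMM. The fibroblast, endothelial and immune markers given above were in the same gland libraries.

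For each member the 3 most similar genes were those with the highest value of the lower of 2 Pearson correlations of log2 CPM, over the 9 libraries of the first table and the 8 of the second, among 11761 genes tested in both. The libraries fall into groups, so these correlations follow group differences and are given as descriptions. Bmp7 had the closest, Frmd6 (r = 0.983 and 0.973, rho = 0.9 and 0.976), Ripk4 (r = 0.963 and 0.963) and Patz1 (r = 0.985 and 0.962). Those of Id1 were Tmbim1 (r = 0.939 and 0.948), Hs3st1 (0.943 and 0.934) and Vat1 (0.924 and 0.935). Those of Id2 were Arl1 (r = 0.925 and 0.922, rho = 0.967 and 0.952), Suds3 and Srgap3, and those of Id3 were Sox9 (r = 0.868 and 0.913, rho = 0.933 and 0.857), Kcnn4 and Tmem86a. Smad6 was closest to Klhdc8a (r = 0.936 and 0.963), Epb41l4a and Nudt18, and Bmpr1a to Gprc5c (r = 0.889 and 0.95), Mycl and Ube2q2. For Bambi, the scarcest gene tested, the closest were Uchl3 (r = 0.814 and 0.75), Chil1 and Rexo4, the last at 0.683 and 0.644.

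With the tables scaled apart, Id1 ranged over all 17 libraries from 1.09 CPM in gland 7 to 39.3 CPM in DM of WT clone 2. Bmpr1a ranged from 91.4 CPM in EM of line 8 to 191 CPM in EM of WT clone 1. Exons of Bmpr1a and Bmp4 overlap those of the antisense genes Gm17110 and Gm15217, whose own counts were 0 to 3 and 0 in every library. The libraries were made with a stranded kit, while the strand setting of the counting is not given in the sources used here.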

How the data were processed

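PolyA RNA of 17 libraries was sequenced from stranded libraries, per the labels' protocols. The authors deposited 2 tables of raw counts per Ensembl gene. Reads were aligned with STAR to GRCm38 and counted with featureCounts, per the submitters' processing notes. Versions, annotation and strand setting were not given in the sources used here. Rows of genes with no symbol held 0.313% and 0.0354% of the counts. The members and gene lists were chosen with earlier results of these data known.

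Each table was fitted apart with edgeR 4.0.16 in R 4.3.3: TMM scaling, filterByExpr by group, 1 mean per group over all 9 or 8 libraries, the quasi-likelihood test and Benjamini-Hochberg adjustment over all 13713 or 14282 genes tested, with a call at an adjusted p under 0.05. The residual degrees of freedom were 6 and 4, and the biological coefficients of variation 0.138 and 0.234. Each SE was taken as the size of the log2 fold change over the root of its F statistic, log2 CPM used a prior count of 2, and RPKM used the union of exons in GENCODE M21 (GRCm38). Alternatives were DESeq2 1.42.0, DESeq2 size factors, total-count scaling, no filter, a fit of only the groups compared, the line or clone as a block, and leaving out each library; a lone library left in an arm is assumed to vary like the other groups. EM and DM libraries of the same number are the same line or clone by the labels, and their deviations from group means correlated at 0.076 to 0.176 in uncloned lines and 0.506 to 0.603 in clones. Genes named were the 8 members, up to 2 called genes of smallest p per list and comparison, and for each member the 3 most similar genes. The fit was also run on simulated counts, for DM against EM in uncloned lines and in WT clones only. That simulation held no comparison with gland, no uneven shift of many genes and no shared line or clone, so it does not check those. Total counts per library, which set the precision of scarce genes such as Bambi and Bmp4, are given above.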

Additional observations from a re-analysis of the deposited data

Results flagged for a closer look

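For 2 of the members, every line or clone moved one way with the medium in one background and the opposite way in another. Bambi was higher in DM than in EM in all 3 uncloned lines (mean log2 difference 1.00) and lower in both KO clones (mean -0.85), so the backgrounds differed by 1.85. Bambi had only 10 to 33 counts per clone library, and its change in KO clones was not called (adjusted p = 0.285 by edgeR). Its difference between KO and WT clones was tested and not called (-1.10 on the log2 scale, adjusted p = 0.769 by edgeR). Bmpr1a was higher in DM in all 3 uncloned lines (mean 0.27) and lower in both WT clones (mean -0.11), a difference of 0.38. Its change in WT clones was not called (adjusted p = 0.521 by edgeR). In KO clones Bmpr1a was higher in DM in both clones, by 0.14 and 0.20, and the difference between KO and WT clones, which share a table, was tested and not called (0.28 on the log2 scale, adjusted p = 0.71 by edgeR). The differences between uncloned lines and clones were not tested, because the tables were scaled and fitted apart. Groups held 2 or 3 libraries, too few for a check of single outlying libraries.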

How the results depend on the processing

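Under total-count scaling against gland, 7 members were higher and 0 lower in EM, and 7 and 0 in DM, with 11493 genes higher and 1302 lower in EM and 11516 and 1270 in DM (TMM: 5130 and 5129, and 5223 and 5135). Values that turned direction there were followed for the members, Pax6 and the up to 2 called genes of smallest p per list. In EM they were, on the log2 scale, Id2 (1.08), Id3 (1.02), Bmpr1a (1.52), Tcf4 (0.21) and Pax6 (1.26). In DM they were Id2 (1.79), Bmpr1a (1.70) and Pax6 (1.21). Tcf4, outside that selection in DM, turned there too, as all 3 E proteins were called higher in DM by total count. In WT clones, DM against EM, the members called higher (main 1) were 2 by DESeq2, 2 with no filter and 2 with the clone as a block (paired), and those lower (main 1) were 0 in a fit of only the groups compared. In KO clones (main 0 and 0) members higher and lower were 1 higher by DESeq2, 1 and 1 with no filter, 1 and 1 with the clone as a block, and 1 lower with only the groups compared. Between genotypes, DESeq2 called 5 lower in EM (main 2), and only the groups compared called 0 lower in DM (main 2). Leaving out 1 library gave 0 to 1 member lower in DM against gland, 2 to 5 higher for uncloned DM against EM, 0 to 2 higher and 0 to 1 lower in WT clones, 0 higher and 0 to 1 lower between genotypes in EM, and 0 to 2 lower in DM. Counts of all genes, higher and lower, moved by over 1.5 times as follows. WT DM against EM (1372 and 875) gave 2110 and 1387 with no filter, 662 and 262 with only the groups compared, and 2122 and 1528 with the block. KO DM against EM (706 and 487) gave 1137 and 842 by DESeq2, 1451 and 1121 with no filter, and 1321 and 1017 with the block. Genotypes in EM (769 and 630) gave 1138 and 1086 by DESeq2 and 1491 and 1456 with no filter. Genotypes in DM (341 and 440) gave 723 and 942 by DESeq2, 1074 and 1473 with no filter, and 46 and 64 with only the groups compared. The interaction (0) gave 40 and 158 by DESeq2, 154 and 503 with no filter, and 6 and 64 with the block. With 1 library left out, calls ranged from 1767 to 2780 higher and 1039 to 2581 lower for uncloned DM against EM, 582 to 1199 and 207 to 757 in WT clones, 62 to 208 and 20 to 76 in KO clones, 119 to 311 and 56 to 183 between genotypes in EM, 0 to 249 and 0 to 275 in DM, and 0 to 8 and 0 to 6 for the interaction. WT and KO clones share only a number (correlations of deviations from -0.002 to 0.024), and a block on it gave 932 and 808 genes in EM and 483 and 616 in DM. The causes were not tested; fits without a library have fewer samples. The block changed no member's call beyond those of Id1 and Bmp7 in clones. In the lists it gave 3 ligands (main 2) and 2 targets (main 1) higher in uncloned lines, and 3 receptors (main 2), 2 modulators, 2 targets and 2 E proteins (main 1 each) in WT clones. Between genotypes, the block on clone number gave 2 modulators higher in EM and 2 in DM (main 1 each). It also gave 1 E protein higher in EM and 1 ligand lower in DM (main 0 each). Depth limits Bambi (5 to 74 counts) and Bmp4 (0 to 10 counts).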
